A study of Homo sapiens with 8 samples.

Results

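Receptor tyrosine kinases are the subject here: 10 named genes (EGFR, ERBB2, ERBB3, MET, AXL, IGF1R, INSR, FGFR1, DDR1 and EPHB4), kept where a table of either cell line lists them. Of these 10 genes, 9 were listed in both lines, among 12715 genes listed in either. ERBB3, the kinase-impaired partner of ERBB2, was in neither table, and no value is given for it.

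CAL-62 and BCPAP are established human thyroid carcinoma lines, and the labels call both anaplastic, although BCPAP is widely known as a papillary carcinoma line. The 4 groups were CAL-62 with THZ1, CAL-62 with DMSO, BCPAP with THZ1 and BCPAP with DMSO, with 2 replicate libraries each. THZ1, a covalent inhibitor of the transcription kinase CDK7, was given at 100 nM for 6 h, and DMSO is its vehicle. The study asked how transcription in these lines responds to that inhibitor. Each line stands for 1 tumour of origin, and CAL-62 was grown in DMEM with more serum than BCPAP had in RPMI 1640, and these cannot be told apart from the line. Whether replicate libraries stem from different cultures is not labelled, and the p-values therefore reflect only how far replicate libraries scattered, which can be technical scatter.

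Receptor tyrosine kinases sit in the plasma membrane with a ligand-binding part outside the cell and a kinase inside. A bound ligand brings receptors together, the kinases phosphorylate each other, and adaptors such as GRB2, SHC1 and the IRS proteins then carry the signal to RAS and ERK or to PI3 kinase and AKT. In thyroid follicular cells and the carcinomas that arise from them, EGFR, MET, IGF1R and AXL are known for supporting growth, survival and motility, and serum supplies several of their ligands.

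Levels below are RPKM-type values, meaning reads per gene length and per divisor of the library. The divisor was recovered from the values and is not the plain library total. In every THZ1 library it was smaller than the reads in listed genes alone, and in every DMSO library it was larger. Median-of-ratios factors of the values lay between 0.983 and 1.022, so the typical gene was already nearly level between treatments. A shift shared by most genes would therefore not show in these levels. Libraries held 16671699 to 19973016 reads in listed genes. The mitochondrial genome contributed 10.3% and 5.45% of reads to the CAL-62 THZ1 libraries and 6.27% and 3.74% to the CAL-62 DMSO libraries, with 5.08% and 3.38% in BCPAP under THZ1 and 4.75% and 2.69% under DMSO. The thyroid factor PAX8 and the epithelial keratins KRT8 and KRT18 were listed in both lines, and NKX2-1 and FOXE1 in BCPAP only. The epithelial markers KRT19 and EPCAM were listed in CAL-62 only. The differentiation genes TG, TSHR and SLC5A5 were listed in neither line, nor was the epithelial cadherin CDH1. No endothelial marker was listed, and of the fibroblast and blood markers 1 each was (COL1A1 and CD68).

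EGFR and EPHB4 are the receptors whose CAL-62 values moved furthest after THZ1, and AXL is the one with the highest level, so the sequences in front of these 3 genes are shown. Each is the stretch of 250 bases before the transcription start in RefSeq (GRCh38.p14), on the strand of the gene. Capitals mark the GC box GGGCGG on either strand, an element that SP1 family factors can bind, and no hits overlap in these windows.
EGFR, chr7:55018767-55019016, plus strand: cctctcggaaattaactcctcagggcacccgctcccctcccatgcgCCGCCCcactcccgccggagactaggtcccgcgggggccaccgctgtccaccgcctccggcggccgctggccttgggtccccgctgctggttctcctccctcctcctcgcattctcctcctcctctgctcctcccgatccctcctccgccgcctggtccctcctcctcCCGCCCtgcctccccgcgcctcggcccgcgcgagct
EPHB4, chr7:100827524-100827773, minus strand: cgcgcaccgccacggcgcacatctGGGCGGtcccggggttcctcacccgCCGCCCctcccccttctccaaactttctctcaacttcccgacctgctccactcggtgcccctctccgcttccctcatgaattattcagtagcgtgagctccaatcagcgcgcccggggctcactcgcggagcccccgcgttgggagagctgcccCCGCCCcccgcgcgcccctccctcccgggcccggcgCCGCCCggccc
AXL, chr19:41218973-41219222, plus strand: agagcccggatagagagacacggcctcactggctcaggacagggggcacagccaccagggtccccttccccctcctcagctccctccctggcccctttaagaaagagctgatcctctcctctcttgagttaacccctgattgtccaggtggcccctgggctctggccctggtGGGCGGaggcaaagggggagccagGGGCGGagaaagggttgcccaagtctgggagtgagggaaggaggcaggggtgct
GC made up 73.6% of the EGFR window, 72.8% of the EPHB4 window and 64.4% of the AXL window, and the median of 35116 windows of this length was 58.0%. The EGFR window held 2 GC boxes, the EPHB4 window 4 and the AXL window 2, and 42.6% of all windows held at least 1. None of the 3 held TATAAA, which 10.7% of windows hold, or TGANTCA, the AP-1 sequence, which 6.57% hold. RefSeq also gives a downstream start for EGFR and for AXL, whose windows are not printed. The downstream EGFR window held no GC box, 2 TATAAA and 2 TGANTCA hits, and the AXL one held none of the 3 motifs. Which start was used in these cells was not measured.

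None of the 9 receptors passed the test after THZ1 in CAL-62, where 4.62% of all 11362 genes tested were called, 4.04% as lower and 0.581% as higher (adjusted p under 0.05, limma with Benjamini-Hochberg adjustment). The same was true in BCPAP, where limma called 0 of 11743 genes, or 0%, and in the difference between the responses of the lines, where it called 0 of 10653 genes, or 0%. At an unadjusted p under 0.05, EPHB4 was past in CAL-62 (30.1% of all genes), none of the 9 in BCPAP (4.01% of all genes, 471) and none in the difference (5.28%, 562). limma-voom on the reads behind the values also called none of the 9 in any of these comparisons, and 0 genes of any kind in BCPAP and in the difference. That fit kept the divisors of the deposited values, so it is no check on the scaling. The median change of the 9 was -0.0417 in CAL-62 and 0.0222 in BCPAP, beside 0.0309 and 0.067 over all genes tested, on the scale of log2(value + 1). In CAL-62, 4 of the 9 changes were positive and 5 negative with the deposited scaling, 2 and 7 with upper-quartile scaling, and 0 and 9 where ribosomal protein genes or mitochondrially encoded genes served as the reference. Those 2 references moved the median of all genes in CAL-62 to -0.771 and -0.848, so directions below are relative to the typical gene. Of the reads in listed genes, without the deposited divisor, the 9 receptors held 0.124% and 0.138% in CAL-62 under THZ1, against 0.193% and 0.158% under DMSO. In BCPAP they held 0.18% and 0.181% under THZ1, against 0.201% and 0.226% under DMSO. The median listed gene also held fewer reads under THZ1, with 399 and 526 in CAL-62, against 667 and 730 under DMSO. In BCPAP it held 554 and 530 under THZ1, against 590 and 603 under DMSO. A lower share under THZ1 is therefore not particular to the receptors, and the shares were not tested.

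The number of genes called in CAL-62 rested on single libraries. It was 525 with all 8 libraries, of which 459 were lower and 66 higher. The direction of the calls depended on the fit: with the replicate number as a block, described at the end, most were higher. Here lower genes made up 87.4% of the 525 calls. With ribosomal protein genes as the reference they made up 99.9%, and with mitochondrial genes 99.4%. It was 9 without CAL-62 DMSO replicate 1 and 0 without CAL-62 DMSO replicate 2. Without BCPAP DMSO replicate 1 or 2 it was 186 or 181, and without BCPAP THZ1 replicate 1 or 2 it was 811 or 806. Without CAL-62 THZ1 replicate 1 it was 260, and without CAL-62 THZ1 replicate 2 it was 465.

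By group mean, the order of the receptors was headed by AXL, then MET, then EGFR in all 4 groups. The place of EGFR in CAL-62 under THZ1 rested on replicate 2, since its 6.21 in replicate 1 lay below ERBB2, FGFR1 and IGF1R in that library. AXL, the receptor for GAS6, averaged 176 and 139 in CAL-62 under THZ1 and DMSO, and 221 and 240 in BCPAP under THZ1 and DMSO. That placed it above EPHA2, the highest of the other listed receptor tyrosine kinases, which averaged 96.1, 74.6, 79.3 and 70.8 in the same groups. The CAL-62 libraries of EPHA2 had 116 and 76.3 under THZ1 and 50 and 99.2 under DMSO. In CAL-62 DMSO replicate 2, AXL at 110 thus lay only a little above EPHA2. Under DMSO the AXL level stood above that of 97.0% of the genes listed in CAL-62 and 98.5% of those listed in BCPAP. AXL alone made up 48.3% to 72.3% of the summed RPKM-type values of the 9 receptors in a library. Of the neighbours in the DMSO order of CAL-62, AXL with 110 and 169 stood clear of MET with 29.4 and 53.3, whereas the MET libraries lay on either side of the EGFR libraries at 32.5 and 32.6. Further down, EPHB4 with 19.4 and 24.0 stood clear of ERBB2 with 13.2 and 16.1, and ERBB2 of IGF1R with 6.26 and 7.7. INSR with 3.88 and 4.55 and FGFR1 with 2.16 and 5.66 overlapped. In BCPAP under DMSO, AXL with 207 and 273, MET with 51.3 and 66.1 and EGFR with 24.6 and 32.6 did not overlap, while ERBB2, EPHB4 and FGFR1 lay together between 8.24 and 13.3. IGF1R with 5.1 and 5.22 and INSR with 2.69 and 2.71 followed without overlap.

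**Figure D1:**
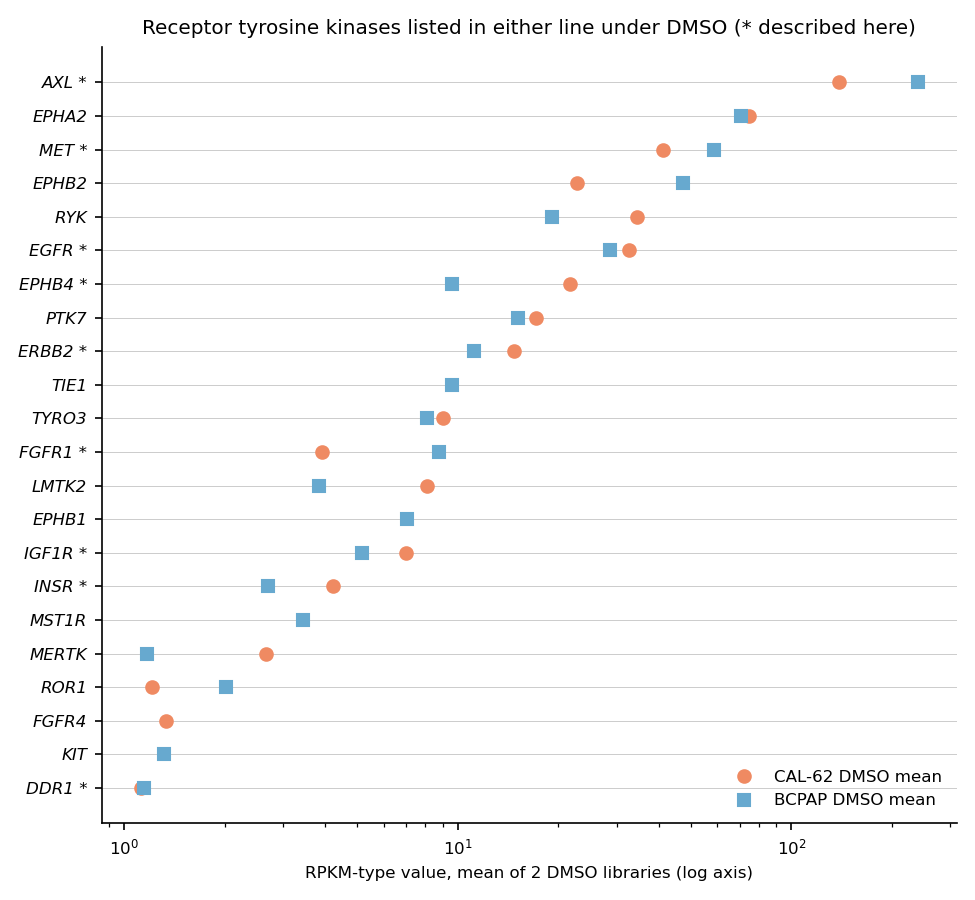
Mean RPKM-type value of the 2 DMSO libraries (x axis, log scale) for each receptor tyrosine kinase listed in either line (y axis), with circles for CAL-62 and squares for BCPAP; asterisks mark the 9 receptors described here. AXL leads in both lines with 139 in CAL-62 and 240 in BCPAP, and DDR1 stands last at 1.12 and 1.15, on a length that differs from its transcripts.

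EGFR (chromosome 7), the receptor for EGF, TGF-alpha and amphiregulin, had 6.21 and 27.4 in the CAL-62 THZ1 libraries, against 32.6 and 32.5 in the CAL-62 DMSO libraries. Both THZ1 values lay below both DMSO values, but only replicate 1 was far below. Of the 9 receptors, EGFR and EPHB4 had such a gap downwards in CAL-62, as had 28.1% of listed genes, and none had one upwards, as had 29.7%. The means were 16.8 ± 15.0 under THZ1 and 32.5 ± 0.0561 under DMSO (SD, n = 2 each), a ratio of 0.517. The change of -1.23 (SE 0.57, 95% interval -2.54 to 0.08) did not pass the test (limma adjusted p = 0.189). Here, as in any bulk sample, less RNA per cell and fewer cells with the RNA cannot be told apart.

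The 2 THZ1 libraries of CAL-62 disagreed on EGFR more than on most genes. Replicate 1 held 563 EGFR reads and replicate 2 held 3367, against 4618 and 5030 in the DMSO libraries. Their RPKM-type values differed 4.42-fold, and 2.17% of listed genes differed by more between the same libraries, whose median ratio was 1.38. Set against the DMSO library of the same number, EGFR changed by -2.22 in replicate 1 and by -0.24 in replicate 2. Without CAL-62 THZ1 replicate 1 the fitted change was -0.24 (limma adjusted p = 0.671), and without CAL-62 THZ1 replicate 2 it was -2.22 (limma adjusted p = 0.0299), where the lone THZ1 library is assumed to vary like the other groups. CAL-62 THZ1 replicate 1 was also the library with the highest mitochondrial share, 10.3% of reads, and the part of this in the result was not tested. With ribosomal protein genes as the reference, EGFR passed in CAL-62 at -2.14 (limma adjusted p = 0.0315), where the median of all genes was -0.771.

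In BCPAP, EGFR had 25.6 and 15.7 under THZ1, against 32.6 and 24.6 under DMSO. The groups overlapped, since THZ1 replicate 1 lay above DMSO replicate 2, although each THZ1 value lay below the DMSO value of its number. The change was -0.48 (SE 0.57, limma adjusted p = 0.938), lower than that of all but 7.89% of genes tested. The responses of the lines differed by -0.75 (SE 0.8, 95% interval -2.61 to 1.1, limma adjusted p = 0.863).

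ERBB2 (chromosome 17), the partner in the EGFR family that binds no ligand of its own, had 10.9 and 18.4 in CAL-62 under THZ1, against 13.2 and 16.1 under DMSO. In BCPAP it had 9.26 and 13.6 under THZ1, against 9.16 and 13.3 under DMSO. Replicate 2 was the higher library in every group, and THZ1 and DMSO values overlapped in both lines. The changes were -0.04 (SE 0.32, limma adjusted p = 0.944) in CAL-62 and 0.02 (SE 0.32, limma adjusted p = 0.995) in BCPAP, with 95% intervals from -0.79 to 0.71 and from -0.73 to 0.77. MIEN1 and PGAP3 overlap ERBB2 on the opposite strand in GENCODE v29, and the strand setting of the counting is not given in the sources used here.

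MET (chromosome 7), the receptor for hepatocyte growth factor, had 38.1 and 34.3 in CAL-62 under THZ1, against 53.3 and 29.4 under DMSO. The BCPAP values were 78.6 and 52.6 under THZ1, against 66.1 and 51.3 under DMSO. Replicate 1 was the higher library in all 4 groups, by 1.81-fold in CAL-62 under DMSO, and treatments overlapped in both lines. Within replicate numbers MET changed by -0.47 and 0.22 in CAL-62, opposite in sign. The fitted changes were -0.13 (SE 0.32, limma adjusted p = 0.816) in CAL-62 and 0.14 (SE 0.32, limma adjusted p = 0.964) in BCPAP. Annotation places no other gene over MET.

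AXL, on chromosome 19, had 204 and 148 in CAL-62 under THZ1, against 169 and 110 under DMSO. Values in BCPAP were 183 and 258 under THZ1, against 207 and 273 under DMSO. The groups overlapped in each line, yet the higher replicate was number 1 in both CAL-62 groups and number 2 in both BCPAP groups. Within numbers the CAL-62 changes were 0.27 and 0.43, and the BCPAP changes were -0.18 and -0.08. The fitted change was 0.35 (SE 0.31, limma adjusted p = 0.47) in CAL-62, negative where ribosomal protein (-0.61) or mitochondrial genes (-0.71) were the reference, and -0.13 (SE 0.31, limma adjusted p = 0.964) in BCPAP. The difference of 0.48 (SE 0.44, 95% interval -0.53 to 1.49) was the only positive one among the 9 receptors and did not pass (limma adjusted p = 0.856). With those 2 references it was -0.23 and -0.18. Leaving out BCPAP DMSO replicate 2 or BCPAP THZ1 replicate 1 turned the sign of the BCPAP change, which then reached 0.12.

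**Figure D2:**
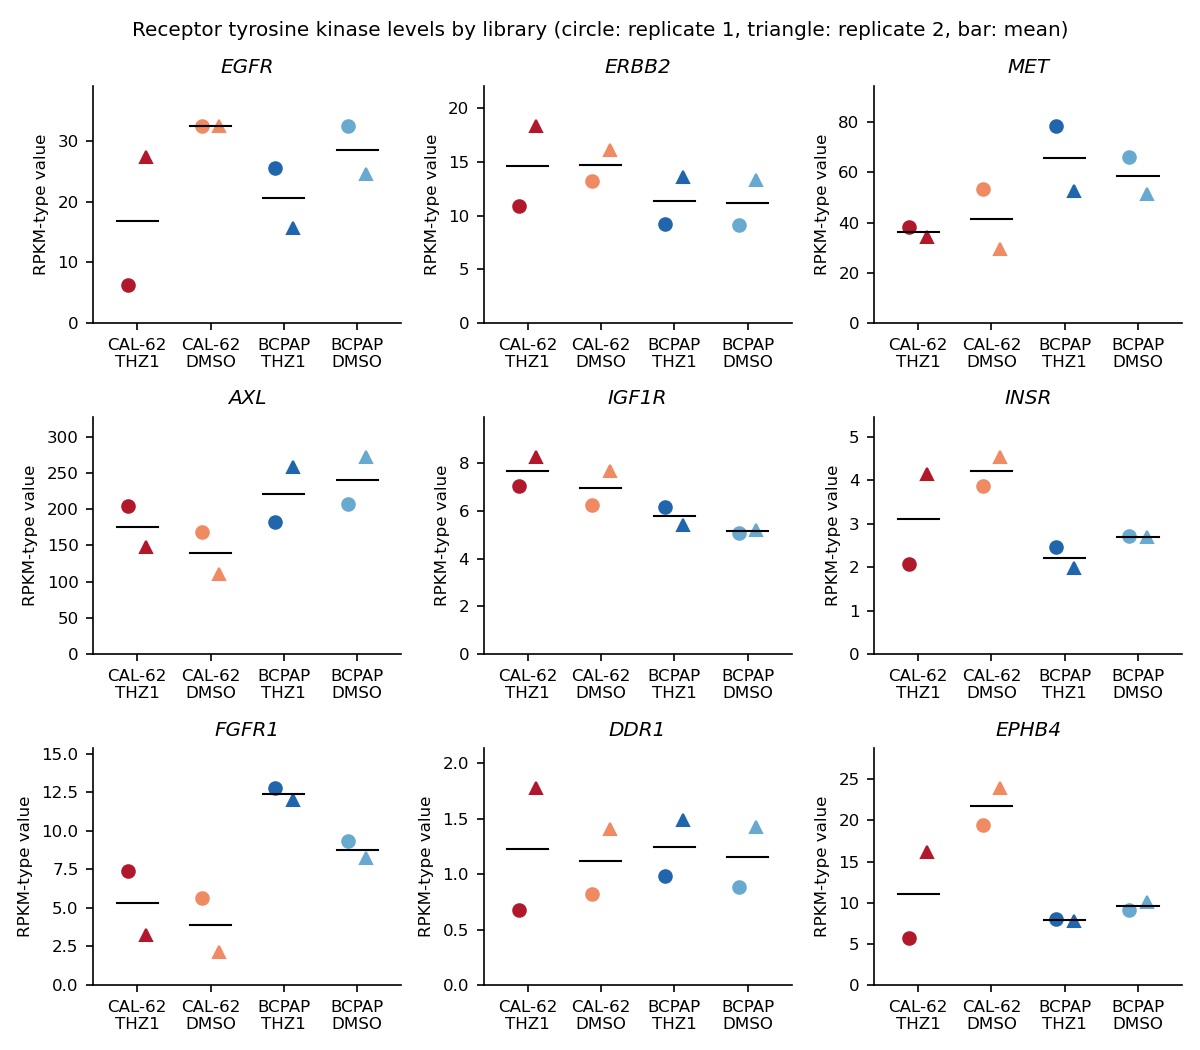
RPKM-type value of 9 receptor tyrosine kinases (1 panel each, linear y axis from 0) in the 8 libraries, with circles for replicate 1, triangles for replicate 2 and bars for group means. EGFR stands out by the distance between its CAL-62 THZ1 libraries, 6.21 and 27.4. FGFR1 lay at or under 7.36 in CAL-62 and at or above 8.24 in BCPAP, and the lines are scaled separately. Of genes listed in both lines, 17% were likewise lower in every CAL-62 library. IGF1R was higher in every CAL-62 library, as were 13.5%.

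IGF1R (chromosome 15), the receptor for the insulin-like growth factors, had 7.06 and 8.29 in CAL-62 under THZ1, against 6.26 and 7.7 under DMSO. In BCPAP it had 6.15 and 5.42 under THZ1, against 5.1 and 5.22 under DMSO. The THZ1 values lay above both DMSO values in BCPAP, as for 21.6% of listed genes, and overlapped with them in CAL-62. Changes were 0.12 (SE 0.22, limma adjusted p = 0.742) in CAL-62, where upper-quartile scaling (-0.02), the ribosomal protein reference (-0.72) and the mitochondrial reference (-0.8) turned the sign, and 0.14 (SE 0.22, limma adjusted p = 0.947) in BCPAP, where the last 2 did so (-0.06 and -0.21).

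INSR (chromosome 19), the insulin receptor and the closest relative of IGF1R, had 2.07 and 4.15 in CAL-62 under THZ1, against 3.88 and 4.55 under DMSO. In BCPAP it had 2.47 and 1.97 under THZ1, against 2.71 and 2.69 under DMSO. CAL-62 THZ1 replicate 1 was low and replicate 2 lay between the DMSO libraries, while in BCPAP both THZ1 values lay below both DMSO values, as for 17.0% of listed genes. The CAL-62 change of -0.39 (SE 0.29, 95% interval -1.05 to 0.28) did not pass (limma adjusted p = 0.389), except with ribosomal protein genes as the reference, where it was -1.13 (limma adjusted p = 0.0437). In BCPAP the change was -0.2 (SE 0.29, limma adjusted p = 0.941). The lowest INSR library held 259 reads, so its counting error was at most 6.21%, against a 2.0-fold gap between the CAL-62 THZ1 libraries.

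FGFR1 (chromosome 8), a receptor for fibroblast growth factors, had 7.36 and 3.26 in CAL-62 under THZ1, against 5.66 and 2.16 under DMSO. Its BCPAP values were 12.8 and 12 under THZ1, against 9.33 and 8.24 under DMSO. The CAL-62 groups overlapped, because replicate 1 was the higher library by 2.26-fold under THZ1 and by 2.62-fold under DMSO, and only 2.97% of genes had a larger ratio between the DMSO libraries. In BCPAP both THZ1 values lay above both DMSO values, as for 21.6% of listed genes. Within numbers the changes were 0.33 and 0.43 in CAL-62 and 0.42 and 0.49 in BCPAP. The fitted changes were 0.38 (SE 0.42, 95% interval -0.6 to 1.35, limma adjusted p = 0.574) and 0.45 (SE 0.42, 95% interval -0.52 to 1.43, limma adjusted p = 0.932), and the CAL-62 one was negative with the ribosomal protein (-0.39) and mitochondrial (-0.47) references. The BCPAP change was higher than that of 94.8% of genes tested. LETM2 overlaps FGFR1 on the opposite strand.

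EPHB4 (chromosome 7), the receptor for ephrin-B2, had 5.73 and 16.2 in CAL-62 under THZ1, against 19.4 and 24.0 under DMSO. Both THZ1 values lay below both DMSO values, with replicate 1 lowest. The means were 11.0 ± 7.44 under THZ1 and 21.7 ± 3.3 under DMSO (SD, n = 2 each). Its change of -1.07 (SE 0.4, 95% interval -2.0 to -0.14) did not pass after adjustment (limma adjusted p = 0.129), at an unadjusted limma p of 0.0296. Within numbers EPHB4 changed by -1.6 and -0.54. Without CAL-62 THZ1 replicate 1 the change was -0.39 (limma adjusted p = 0.346) and without CAL-62 THZ1 replicate 2 it was -1.75 (limma adjusted p = 0.0288). With ribosomal protein genes as the reference it was -1.96 (limma adjusted p = 0.0153).

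CAL-62 THZ1 replicate 1, the lowest CAL-62 library for EGFR, INSR, ERBB2 and DDR1, was also the lowest for EPHB4. It held 344 EPHB4 reads and replicate 2 held 1322 under THZ1, against 1819 and 2464 under DMSO. In BCPAP, EPHB4 had 8.04 and 7.83 under THZ1, against 9.09 and 10.1 under DMSO. Both THZ1 values again lay below both DMSO values, as for 17% of genes listed in BCPAP, at a change of -0.24 (SE 0.4, limma adjusted p = 0.947). The difference between the lines was -0.83 (SE 0.57, 95% interval -2.14 to 0.49, limma adjusted p = 0.843). SLC12A9 overlaps EPHB4 on the opposite strand.

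DDR1, a receptor for collagen in the major histocompatibility region of chromosome 6, had 0.675 and 1.78 in CAL-62 under THZ1, against 0.824 and 1.41 under DMSO. BCPAP libraries had 0.985 and 1.49 under THZ1, against 0.879 and 1.42 under DMSO. Replicate 2 was higher in all 4 groups, and the treatments overlapped. The changes were 0.04 in CAL-62, negative with upper-quartile scaling (-0.05) and with the ribosomal protein and mitochondrial references (-0.46 each), and 0.06 in BCPAP, negative with the last 2 (-0.07 and -0.18). Neither passed (limma adjusted p = 0.94 and 0.985).

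The low level of DDR1 rests on the gene length behind the values. Whole read numbers fitted all of its values at a length of 23172 bases, whereas its longest transcript in GENCODE v29 has 4148 bases, a ratio of 5.586. The other 8 receptors had ratios from 0.669 (EGFR, 6571 bases) to 1.07 (ERBB2, 5127 bases), and for AXL the recovered 4737 bases equalled the longest transcript. Of 10425 protein-coding genes compared, 45 had a ratio above 3. In the major histocompatibility region 20 of 35 did, at a median of 3.99, and the reason was not tested. Per length of its longest transcript, DDR1 would stand at 3.77 and 9.97 in CAL-62 under THZ1 and at 4.6 and 7.89 under DMSO. In BCPAP it would stand at 5.5 and 8.3 under THZ1 and at 4.91 and 7.95 under DMSO, near IGF1R. Comparisons within DDR1 are untouched by its length except through the added 1 of the log scale.

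**Figure D3:**
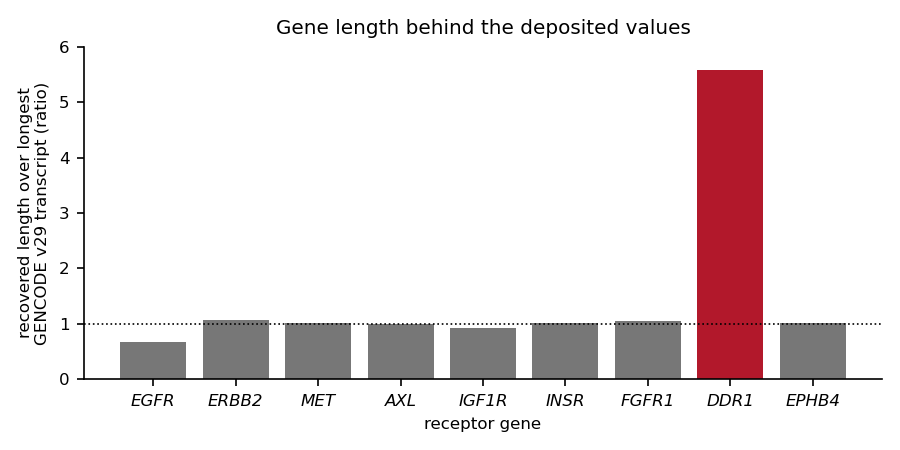
Gene length recovered from the deposited values over the longest GENCODE v29 transcript (y axis, ratio; bars from 0) for 9 receptor genes (x axis), with a dotted line at equal length. DDR1 stands at 5.586 and the other 8 between 0.669 and 1.07.

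**Figure D4:**
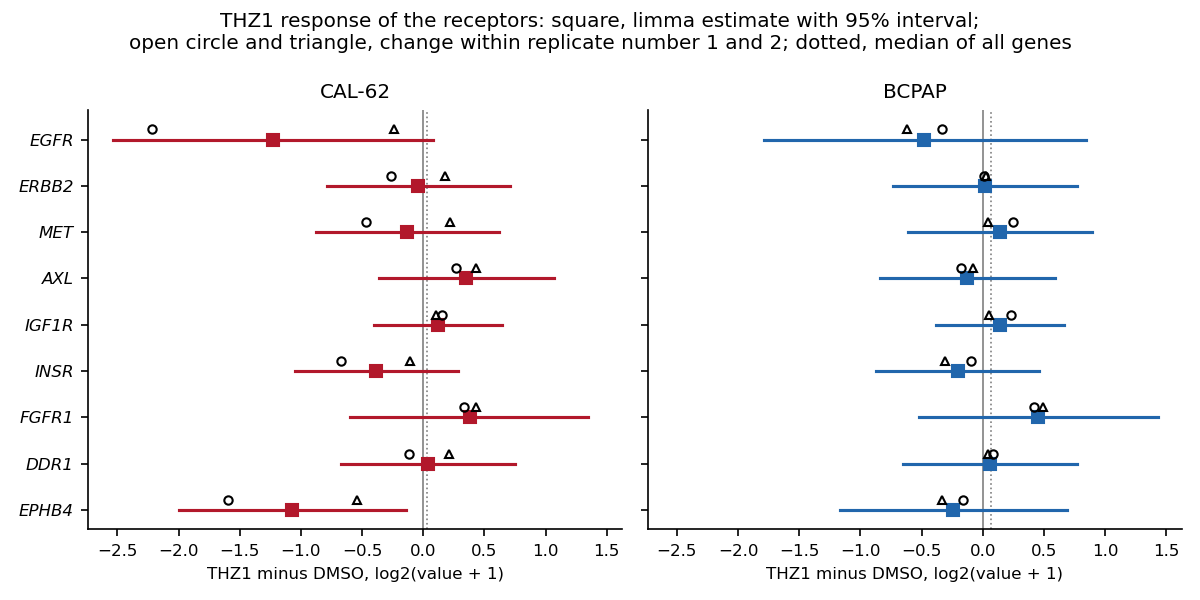
Change after THZ1 on the log2(value + 1) scale (x axis, THZ1 minus DMSO) for 9 receptors (y axis) in CAL-62 and BCPAP, as the limma estimate with its 95% interval (square and line), the changes within replicate numbers 1 and 2 (circle and triangle) and the median of all genes (dotted line). In CAL-62 only the EPHB4 interval, -2.0 to -0.14, excludes 0; AXL, IGF1R, FGFR1 and DDR1 lie right of 0 here and left of it with ribosomal protein or mitochondrial genes as the reference.

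Under DMSO, 5 of the 9 receptors had levels that did not overlap between the lines. The tables of the lines are scaled separately, so these ratios are descriptions without a test, beside a median ratio of 1.01 (CAL-62 over BCPAP) for 10698 genes in both tables. EPHB4 was higher in CAL-62, with means of 21.7 in CAL-62 and 9.58 in BCPAP and a ratio of 2.27, and so were INSR at a ratio of 1.56 and IGF1R at 1.35. FGFR1 was lower, with means of 3.91 in CAL-62 and 8.78 in BCPAP and a ratio of 0.445, and so was AXL at 0.58. The DMSO libraries of the lines did not overlap for these 5 genes, as for 33.2% of genes in each direction. For EGFR (1.14), ERBB2 (1.31), MET (0.704) and DDR1 (0.971) they overlapped. Over all 8 libraries, THZ1 included, IGF1R stayed higher and FGFR1 lower in every CAL-62 library than in every BCPAP library, as were 13.5% and 17% of genes in both tables.

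Among the other 48 receptor tyrosine kinases looked up, 8 were listed in both lines: PTK7, ROR1, TYRO3, MERTK, EPHA2, EPHB2, RYK and LMTK2. FGFR4 was listed in CAL-62 only, and KIT, MST1R, TIE1 and EPHB1 in BCPAP only. The remaining 35, among them RET and ALK, which are rearranged in some thyroid cancers, were listed in neither. None of the 9 tested in CAL-62 passed, and 6 changes were positive and 3 negative with a median of 0.402. None of the 12 tested in BCPAP passed, at a median of 0.145. The largest CAL-62 changes were in PTK7, a kinase-dead receptor of Wnt signalling, with 25.2 and 27.7 under THZ1, against 16.1 and 18.2 under DMSO (0.6, SE 0.2, limma adjusted p = 0.0949), and RYK, another Wnt receptor (0.52, SE 0.3, limma adjusted p = 0.279). With ribosomal protein genes as the reference these were -0.32 and -0.42, and with mitochondrial genes -0.41 and -0.52.

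Of 40 ligands, 15 were listed in both lines, 2 in CAL-62 only and 4 in BCPAP only. Of 17 tested in CAL-62, 1 fell, EFNA4, and none rose, at a median of -0.346. Over all genes tested in CAL-62, 4.04% were called lower, so a single call in a list of this size is near the background, here and in the next lists. EFNA4, or ephrin-A4, a ligand of Eph receptors, had 0.403 and 0.468 in CAL-62 under THZ1, against 3.17 and 3.14 under DMSO, from 7 and 11 reads against 86 and 93. The THZ1 libraries lay far below the DMSO libraries (change -1.53, SE 0.2, limma adjusted p = 0.0166). In BCPAP it had 1.1 and 0.898 under THZ1, against 1.77 and 2.05 under DMSO (-0.54, SE 0.2, limma adjusted p = 0.932), and the difference between lines did not pass (-0.99, SE 0.28, limma adjusted p = 0.834). The call was lost without CAL-62 DMSO replicate 1 (limma adjusted p = 0.0687), without CAL-62 DMSO replicate 2 (limma adjusted p = 0.136) and with the 4 CAL-62 libraries alone (limma adjusted p = 0.0835). EFNB2, the ephrin that binds EPHB4, had 5.47 and 1.33 under THZ1, against 6.2 and 6.69 under DMSO in CAL-62 (-0.94, limma adjusted p = 0.237). VEGFB, a ligand of the VEGF receptor FLT1, had 51.0 and 73.8 in CAL-62 under THZ1, against 31.0 and 43.1 under DMSO (0.73, limma adjusted p = 0.352, and negative with the ribosomal protein and mitochondrial references at -0.21 and -0.31). None of 19 ligands passed in BCPAP, at a median of 0.108.

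Of 37 adaptors and effectors, 30 were listed in both lines, and 1 of these 30 tested in CAL-62 fell while none rose, at a median of -0.0794. It was IRS1, the docking protein that links IGF1R and INSR to PI3 kinase. IRS1 had 2.11 and 1.6 in CAL-62 under THZ1, against 5.4 and 7.82 under DMSO, so the THZ1 libraries lay below both DMSO libraries (-1.4, SE 0.25, limma adjusted p = 0.0291). In BCPAP, where its level was higher, IRS1 had 21.7 and 17.5 under THZ1, against 23.5 and 21.5 under DMSO (-0.2, SE 0.25, limma adjusted p = 0.938). The difference between the responses was -1.2 (SE 0.36, limma adjusted p = 0.834). The IRS1 call in CAL-62 was lost without CAL-62 THZ1 replicate 1 or 2 (limma adjusted p = 0.0524 and 0.0611), CAL-62 DMSO replicate 1 or 2 (0.0872 and 0.202) or BCPAP DMSO replicate 1 or 2 (0.0621 and 0.0619). It was also lost with the 4 CAL-62 libraries alone (still -1.4, SE 0.31, limma adjusted p = 0.0865) and with mitochondrial genes as the reference (-2.2, SE 0.75, limma adjusted p = 0.0639). SOS1, the exchange factor that activates RAS, changed by -0.89 in CAL-62 (limma adjusted p = 0.179), and the adaptor CRK by -0.84 (limma adjusted p = 0.079). None of 33 passed in BCPAP, at a median of 0.205.

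Of 28 negative regulators tested in CAL-62, 1 fell and none rose, with 8 changes positive and 20 negative at a median of -0.279, where 48.2% of all tested genes were negative. LRIG2, of a family of membrane proteins that modulate receptor kinases, had 0.487 and 0.666 in CAL-62 under THZ1, against 2.31 and 2.84 under DMSO (-1.18, SE 0.21, limma adjusted p = 0.0274). It had 27 and 50 reads in the THZ1 libraries, against 200 and 269 in the DMSO libraries. In BCPAP its change was -0.14 (limma adjusted p = 0.943), and the difference between the lines was -1.04 (SE 0.29, limma adjusted p = 0.834). Its call was lost without CAL-62 THZ1 replicate 1 (limma adjusted p = 0.0722), CAL-62 DMSO replicate 1 or 2 (0.109 and 0.198) or BCPAP DMSO replicate 1 or 2 (0.0639 and 0.066). It was also lost with the 4 CAL-62 libraries alone (still -1.18, SE 0.24, limma adjusted p = 0.0835) and with mitochondrial genes as the reference (-1.73, SE 0.6, limma adjusted p = 0.069). RNF41, a ubiquitin ligase known for turning over ERBB3, had 1.52 and 3.96 under THZ1, against 6.14 and 9.59 under DMSO in CAL-62 (-1.3, limma adjusted p = 0.0694). SOCS5, which limits EGFR signalling, had 17.6 and 6.94 in CAL-62 under THZ1, against 4.91 and 3.88 under DMSO (1.18, limma adjusted p = 0.094). In BCPAP, RNF41 had 5.78 and 6.22 under THZ1, against 10.1 and 10.5 under DMSO (-0.69, limma adjusted p = 0.932). SOCS5 had 8.42 and 7.38 there under THZ1, against 4.92 and 4.22 under DMSO (0.68, limma adjusted p = 0.932). None of 28 passed in BCPAP, at a median of 0.143.

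Secreted and membrane proteins that set how much ligand or receptor is available did not pass in either line. Of the IGF binding proteins, IGFBP6 had 37.4 and 43.4 in CAL-62 under THZ1, against 21.8 and 24.9 under DMSO (0.77, SE 0.19, limma adjusted p = 0.0599), and IGFBP4 changed by 0.72 (limma adjusted p = 0.194). Both were negative with ribosomal protein genes (-0.17 and -0.23) or mitochondrial genes (-0.26 and -0.33) as the reference. Of the surface proteases and their inhibitors, 8 of 11 changes in CAL-62 were positive, at a median of 0.515, with the deposited scaling. ADAM9, a sheddase, had 87.5 and 68.1 in CAL-62 under THZ1, against 41.8 and 37.9 under DMSO (0.94, SE 0.21, limma adjusted p = 0.0509, and -0.01 and -0.11 with those references). TIMP1, an inhibitor of metalloproteases, had 395 and 367 in CAL-62 under THZ1, against 205 and 174 under DMSO (1.01, SE 0.25, limma adjusted p = 0.0599, and -0.05 with the mitochondrial reference). In BCPAP the medians were 0.178 over 4 binding proteins and 0.236 over 13 proteases and inhibitors, with none called.

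**Figure D5:**
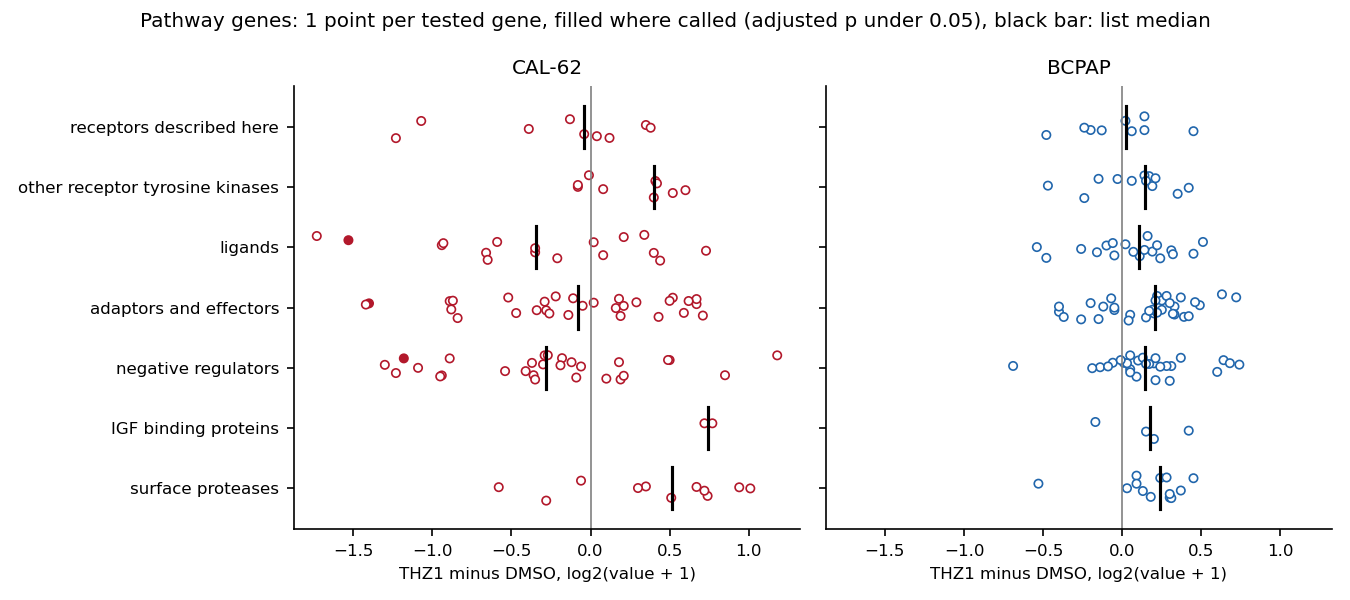
Change after THZ1 on the log2(value + 1) scale (x axis) of each tested gene in 7 groups of receptor pathway genes (y axis) in CAL-62 and BCPAP; filled points passed the test (limma adjusted p under 0.05) and black bars are group medians. EFNA4, IRS1 and LRIG2 are the filled points, all in CAL-62, and medians reach from -0.346 for ligands to 0.743 for the 2 IGF binding proteins there, with the deposited scaling.

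For each receptor, 1 gene with the most similar pattern over the 8 libraries was found among 7920 or 7921 genes with a mean level of at least 5, by the root mean square difference of centred log2(value + 1). EGFR had the least close neighbour, BCL2L2 at 0.278, whose CAL-62 values were 2.2 and 6.73 under THZ1 and 8.69 and 11.7 under DMSO. EPHB4 lay nearest to INPP5E at 0.102, AXL to PRR11 at 0.129, MET to ASCC3 at 0.116 and FGFR1 to EPB41L2 at 0.157. ERBB2 lay nearest to CNTROB at 0.0624, IGF1R to TBC1D15 at 0.0798, INSR to RPL7L1 at 0.0941 and DDR1 to MARVELD1 at 0.0691. A flatter gene finds a close neighbour more easily, so these distances do not rank the receptors.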

How the data were processed

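RNA-seq values of 8 libraries were used. The values the authors deposited, 1 for each gene in each library, are RPKM-type, as inferred from the values themselves. Bowtie2, DESeq2 and hg19 are named, without roles, per the submitters' processing notes; annotation and strand setting are unknown here. Each line's table lists genes with a DMSO mean of about 1 or more, 11513 in CAL-62 and 11900 in BCPAP, so genes below that level were not analysed here. The lowest THZ1 mean was 0.0 in both lines. A gene off under DMSO and raised by THZ1 could thus not be called higher, whereas a gene lost under THZ1 could be called lower. A whole gene length turned the values into whole reads within 0.02 reads for 12711 of 12715 genes.

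limma 3.58.1 in R 4.3.3 was fitted with a mean-variance trend to log2(value + 1), which understates changes of low genes, for genes with a mean of at least 1. Each of 4 groups had its own mean, all 8 libraries shared the spread, and genes of 1 line used its 4 libraries. Two-sided p-values were adjusted over all genes tested by the Benjamini-Hochberg method. The design had allowed for counts; the values called for limma. The fit was tested on simulated data. The receptors, gene lists, comparisons and alternatives were chosen with earlier results of these data known. Named besides the receptors are list members that passed, the 2 largest CAL-62 changes per list at a mean of at least 5, and the most similar gene of each receptor. Alternatives were the pseudocount (0.1), no filter, 4 other scalings, limma-voom on reads, no trend, the replicate number as a block, single lines and single libraries left out. Counting error reached 6.8% at most (DDR1, 216 reads); median reads per gene were 399 to 730. Lengths and overlaps come from GENCODE v29 and promoters from RefSeq, GRCh38.p14. Promoter entries of 8 of the receptors were matched by symbol, and chromosome 8, which carries FGFR1, was left out of that match.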

Additional observations from a re-analysis of the deposited data

How the results depend on the processing

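The 9 receptors stayed uncalled in BCPAP and in the difference between lines under all alternatives run. In CAL-62, 3 were called with ribosomal protein genes as the reference (EGFR, INSR and EPHB4), and 1 with the replicate number as a block (EPHB4, -1.07, limma adjusted p = 0.0211). Leaving out single libraries gave 0 to 2. Of all genes in CAL-62, 525 in the reported fit, 3079 were called with the ribosomal protein reference, 218 with limma-voom, 4563 with the replicate block (2060 lower, 45.1%, so most were higher) and 0 with the 4 CAL-62 libraries alone, the last with fewer degrees of freedom. Single libraries left out gave 0 to 811. In BCPAP the count of 0 became 2 with the mitochondrial reference and 0 to 1 with single libraries left out. In the difference it became 1 with a pseudocount of 0.1 and 1 with the mitochondrial reference. Nothing in the labels says that the replicate numbers pair the libraries, although deviations of same-numbered libraries correlated at 0.469 in CAL-62 and 0.779 in BCPAP across genes. The block changed no other receptor call, and it called 11 of the 12 uncalled list genes named in CAL-62.

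Signs turned as follows, and the cause was not tested beyond the shift of all genes given with the report. With upper-quartile scaling IGF1R was -0.02 and DDR1 -0.05 in CAL-62, and ERBB2 -0.07 in BCPAP, where median-of-ratios scaling gave ERBB2 -0.01. With ribosomal protein genes AXL was -0.61, IGF1R -0.72, FGFR1 -0.39, DDR1 -0.46, PTK7 -0.32, RYK -0.42, VEGFB -0.21, IGFBP6 -0.17, IGFBP4 -0.23 and ADAM9 -0.01 in CAL-62. In BCPAP it gave ERBB2 -0.2, MET -0.1, IGF1R -0.06 and DDR1 -0.07, and in the difference AXL -0.23. With mitochondrial genes AXL was -0.71, IGF1R -0.8, FGFR1 -0.47, DDR1 -0.46, PTK7 -0.41, RYK -0.52, VEGFB -0.31, IGFBP6 -0.26, IGFBP4 -0.33, TIMP1 -0.05 and ADAM9 -0.11 in CAL-62. In BCPAP it gave ERBB2 -0.35, MET -0.25, IGF1R -0.21 and DDR1 -0.18, and in the difference AXL -0.18.

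With single libraries left out, the CAL-62 changes ranged from -0.4 to 0.31 for ERBB2, -0.55 to 0.29 for MET, -0.01 to 0.25 for IGF1R, -0.16 to 0.92 for FGFR1 and -0.32 to 0.41 for DDR1. The BCPAP changes ranged from -0.23 to 0.28 for ERBB2, -0.14 to 0.43 for MET, -0.37 to 0.12 for AXL and -0.13 to 0.24 for DDR1. The differences ranged from -1.74 to 0.24 for EGFR, -0.42 to 0.29 for ERBB2, -0.69 to 0.15 for MET, -0.14 to 0.12 for IGF1R, -0.56 to 0.19 for INSR, -0.61 to 0.46 for FGFR1 and -0.38 to 0.35 for DDR1. In all, 743 single-gene values kept their direction and side of the threshold, 70 turned, 24 newly passed it and 18 no longer did. Some settings leave the change of a line as it is and could not turn its sign. These are no trend, the replicate block, single lines and leaving out a library of the other line. The tally is therefore no measure of stability. DDR1 per length of its longest transcript, chosen after seeing the data, changed by 0.04 in CAL-62 and 0.1 in BCPAP.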
